A study of Mus musculus with 36 samples.

Results

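This account covers primary microglia of Usp18 knockout (KO) mice after 24 h of interferon beta (IFN-b) set against the same genotype after 6 h, 4 arrays of the 36 in the series, 2 for each time, chosen by their titles. All 4 arrays carried 500 U/ml IFN-b, so the comparison holds genotype and dose constant and varies the time in IFN-b. KO microglia without IFN-b (0 h, 2 arrays) gave the starting level. Beside them stood wild-type (WT) microglia at 24 h and 6 h from the same stretch of the deposition order (4 arrays, called the run of KO), microglia with the Usp18 C61A point mutation at 24 h and 6 h (4 arrays) and the WT microglia deposited beside those (4 arrays, called the other run). Untreated WT microglia of the run of KO, and BV-2 cells (a mouse microglial line) with control siRNA at 0 h and 6 h, were used to choose gene lists. The labels do not say what the stretches of the deposition order are, how old the animals were or how many went into a culture. They call the replicates biological, and the p-values measure only the spread between these samples.

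USP18 is a protease that removes the ubiquitin-like modifier ISG15 from proteins. Apart from that activity it binds the IFNAR2 chain of the type I interferon receptor and holds back JAK1, so it acts as a brake on signalling once interferon has been seen. Microglia are the resident macrophages of the brain, and in mice without Usp18 they are known to show an interferon response without added interferon. The comparison asks which genes decline and which keep rising between 6 h and 24 h when this brake is absent.

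The values are array intensities, used as log2, and a change is a log2 difference with its standard error after the ± sign. A gene rose or fell where limma gave an adjusted p under 0.05 (Benjamini-Hochberg over 7960 genes tested). The deposited medians of the 4 arrays lay at 5.62 to 5.72, their highest values at 13.8 to 13.9, and their pairwise correlations at 0.922 to 0.974. The number of arrays limits the precision. Of 18 microglial markers 14 were tested, and 12 of these lay above the array median on all 4 arrays. The exceptions were Tmem119, below the median on each of the 4, and Gpr34, near the bottom of the scale (2.77 and 2.55 at 24 h, against 2.62 and 2.56 at 6 h). Usp18 itself read 5.92 and 5.97 in KO microglia at 24 h and 6.42 and 5.85 at 6 h, against 11.15 and 10.71 in WT microglia at 24 h and 12.56 and 12.41 at 6 h in the run of KO. The change in KO was -0.19 ± 0.91 (limma, adjusted p = 0.958). Where the probe set lies relative to the deletion is not given in the sources used here. Arrays of bulk RNA cannot tell fewer cells of a type from less RNA per cell.

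Outside KO, 2 arrays of the other run stood apart from their labels. The mean level of 69 genes that IFN-b induced in BV-2 cells (below) was 10.15 on the array labelled WT 0 h replicate 1, against 7.18 on replicate 2. It was 8.53 on the array labelled C61A 6 h replicate 2, against 10.37 on replicate 1. Both arrays enter the shared estimate of spread, and genes named here whose call in KO differs without them are given both ways.

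Promoter windows of genes at the centre of the results came from RefSeq (GRCm38.p6; 250 bases before to 50 after the start, on the gene's strand, 5' to 3'). They are shown because the genes with the core of the interferon-stimulated response element are common among those induced by IFN-b. The motif searched was GAAA, any 2 bases, GAAA, on both strands. Capitals mark its matches, and TTTC, any 2 bases, TTTC is the same motif on the other strand. Gbp2 (guanylate-binding protein), Cxcl10 (a T cell attractant) and Ifit1 (a sensor of viral RNA caps) held 1, 1 and 2 matches, and the windows of Tmem176a and Irf8, which fell, held none.
Gbp2 (chr3:142620413-142620712, plus strand): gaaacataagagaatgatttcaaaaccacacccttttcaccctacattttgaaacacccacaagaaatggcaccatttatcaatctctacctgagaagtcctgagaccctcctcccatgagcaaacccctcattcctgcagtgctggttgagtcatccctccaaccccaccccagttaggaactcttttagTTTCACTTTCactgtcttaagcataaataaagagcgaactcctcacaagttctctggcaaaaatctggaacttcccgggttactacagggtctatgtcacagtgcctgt
Cxcl10 (chr5:92348840-92349139, minus strand): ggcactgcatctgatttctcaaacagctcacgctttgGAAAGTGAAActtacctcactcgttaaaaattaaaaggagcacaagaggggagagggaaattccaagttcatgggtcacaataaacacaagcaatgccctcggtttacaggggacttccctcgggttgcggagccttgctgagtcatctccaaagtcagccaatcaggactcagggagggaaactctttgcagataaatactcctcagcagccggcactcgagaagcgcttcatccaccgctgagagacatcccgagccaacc
Ifit1 (chr19:34640639-34640938, plus strand): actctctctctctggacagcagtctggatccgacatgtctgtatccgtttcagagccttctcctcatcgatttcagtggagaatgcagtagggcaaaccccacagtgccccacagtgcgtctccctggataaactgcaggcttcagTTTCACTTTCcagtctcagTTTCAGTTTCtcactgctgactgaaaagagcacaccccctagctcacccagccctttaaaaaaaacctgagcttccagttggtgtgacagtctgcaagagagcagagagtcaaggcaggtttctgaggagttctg
Tmem176a (chr6:48841233-48841532, plus strand): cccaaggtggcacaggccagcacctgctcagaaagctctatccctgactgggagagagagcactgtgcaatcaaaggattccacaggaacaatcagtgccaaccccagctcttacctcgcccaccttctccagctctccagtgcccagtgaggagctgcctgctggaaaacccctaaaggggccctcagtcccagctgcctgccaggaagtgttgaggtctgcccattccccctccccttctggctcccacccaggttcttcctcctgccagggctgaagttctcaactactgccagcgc
Irf8 (chr8:120736108-120736407, plus strand): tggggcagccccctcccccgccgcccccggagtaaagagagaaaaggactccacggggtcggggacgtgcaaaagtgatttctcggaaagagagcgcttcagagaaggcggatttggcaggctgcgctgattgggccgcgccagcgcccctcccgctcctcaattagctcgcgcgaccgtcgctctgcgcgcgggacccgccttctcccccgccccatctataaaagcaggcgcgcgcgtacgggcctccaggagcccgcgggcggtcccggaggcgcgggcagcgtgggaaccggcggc
Of the genes tested with a promoter entry (6516), 4.16% held a match, as did 3.44% of all 32851 promoters of this length. The share was 4.89% of 184 genes that rose and 0 of 61 that fell between 6 h and 24 h in KO. Among 57 genes induced in BV-2 cells it was 40.4%. The core of NF-kB sites (GGG, any 5 bases, CC), searched in the same way and free to overlap the first motif, was in 73.9% of the genes that rose, 82.0% of those that fell and 72.7% of all tested, and in 50.8% of all promoters. A gene counted where any of its windows held a match (8463 windows for the 6516 genes), while the shares of all promoters count single windows. The gene shares and the promoter shares are therefore not like for like. These letters are descriptions of the windows and not evidence of binding.

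In KO microglia 292 genes differed between 24 h and 6 h, 3.67% of those tested. Of these 221 (2.78%) rose by 0.51 to 2.05 and 71 (0.892%) fell by 0.58 to 2.93, while the median of all genes was 0.05. The falls were led by Lpl (lipoprotein lipase), the sister membrane genes Tmem176a and Tmem176b, and the adhesion gene Zyx, and the rises by Angpt2, Rassf8, Antxr2 and St8sia4. In all 292 genes the 24 h arrays lay on 1 side of the 6 h arrays, which holds for 45.9% of all genes. The number of calls rested on single arrays. It was 7 without KO 24 h replicate 1, 17 without KO 24 h replicate 2, 65 without KO 6 h replicate 2 and 249 without KO 6 h replicate 1, and 6, 17, 48 and 135 of the 292 were still called. Since the times do not overlap in these genes, leaving out an array cannot turn a direction. Lpl, Plekha1 and Cyb5r1 were the only genes called in all 4. Without the 2 arrays of the other run that stood apart it was 556. With the 6 KO arrays alone no gene was called (limma, 1168 at unadjusted p under 0.05). With the replicate number as a block the same 6 arrays gave 827 calls, and the fit of all microglia gave 1013. The labels do not say whether a number marks the same culture, so the pairing is not settled.

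**Figure D1:**
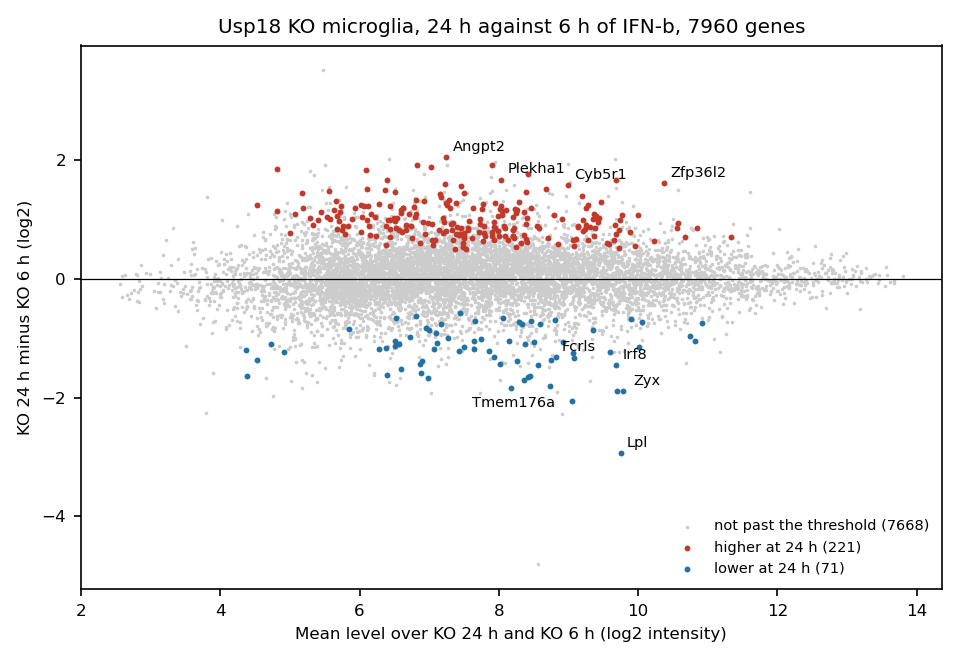
Change in Usp18 KO microglia (24 h minus 6 h, log2) against the mean level of each of 7960 genes over the 4 arrays (log2 intensity); coloured points passed the threshold, 221 higher (red) and 71 lower (blue). Lpl lies lowest among the called genes at -2.93, and the genes at the right end of the level axis lie close to 0.

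Lpl, which frees fatty acids from lipoproteins and is made by lipid-handling microglia, had the largest fall of the called genes. It read 8.32 and 8.24 at 24 h, against 10.52 and 11.90 at 6 h. Untreated KO microglia read 11.68 and 12.36, and the 24 h arrays lay below all 4 others. The change was -2.93 ± 0.35 (limma, adjusted p = 0.00151), a level 7.63-fold lower than at 6 h on the assumed log2 scale, and a second probe set gave -2.11. In WT of the run of KO it read 12.99 and 13.20 at 24 h, against 12.65 and 13.04 at 6 h, a change of 0.25. Without a KO array in turn the change in KO was -2.24 to -3.62.

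Tmem176a and Tmem176b, neighbouring membrane channel genes linked to antigen handling in myeloid cells, fell together. Tmem176a read 7.62 and 8.44 at 24 h, against 9.74 and 10.43 at 6 h, a change of -2.05 ± 0.36 (limma, adjusted p = 0.013). Tmem176b read 8.23 and 9.29 at 24 h, against 10.30 and 11.00 at 6 h, a change of -1.89 ± 0.33 (adjusted p = 0.013). Replicate 1 was the lower array at each time, and the times did not overlap. For Tmem176a a second probe set gave -2.13. Both calls were lost without KO 24 h replicate 1 (adjusted p = 0.138 and 0.13) and without KO 6 h replicate 2 (0.0704 and 0.0702).

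Irf8, a transcription factor of the macrophage and microglial lineage that interferons also regulate, was the 1 member of the interferon lists that fell. It read 8.94 and 8.96 at 24 h, against 10.31 and 10.51 at 6 h, with 8.95 and 9.74 at 0 h. The 24 h arrays lay below both 6 h arrays and close to the lower untreated one. The change was -1.46 ± 0.29 (limma, adjusted p = 0.0185), with -1.08 on a second probe set. WT of the run of KO read 9.52 and 9.97 at 24 h, against 9.40 and 9.89 at 6 h. The call in KO was kept only without KO 6 h replicate 1 among the 4 fits that each left out a KO array, with adjusted p = 0.0365 there, 0.14 without KO 24 h replicate 1, 0.0979 without KO 24 h replicate 2 and 0.08 without KO 6 h replicate 2.

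Other falls covered signalling, the inflammasome and sugar metabolism. Nlrp3, the inflammasome sensor, fell by 1.43 (limma, adjusted p = 0.0389), and Pycard, which couples it to caspase-1, by 1.23 (0.0197). Ripk3, a kinase of necroptosis, fell by 1.18 (0.0456), and Ikbke, a kinase that activates IRF3, fell by 1.06 (0.0471). Bcl3, a nuclear IkB protein, fell by 1.09 (0.0422), and Fcrls, an Fc receptor-like gene that marks resting microglia, fell by 1.31 (0.0268). Slc2a1, which brings glucose into the cell, fell by 1.06 (0.0167), and Hk2, which phosphorylates it, fell by 0.77 (0.0389). The last 2 were the called members of 15 tested genes of glycolysis, arginine and iron metabolism (0.892% of all genes fell). Leaving out 1 KO array in turn gave -0.91 to -1.96 for Nlrp3, -0.55 to -1.57 for Ikbke and -0.79 to -1.83 for Fcrls. The calls of Pycard, Ripk3, Bcl3 and Hk2 were kept in none of these fits. Those of Nlrp3, Ikbke and Slc2a1 were kept only without KO 6 h replicate 1.

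Pdk3, which inhibits pyruvate dehydrogenase, fell by 1.63 (limma, adjusted p = 0.0268). Cyp27a1, a sterol hydroxylase, fell by 1.80 (0.0185), and Cp, the copper oxidase ceruloplasmin, fell by 1.83 (0.0185). Acot7, a thioesterase of fatty acyl-CoA, fell by 1.70 (0.0125), and Spsb1, an adaptor of a ubiquitin ligase, fell by 1.65 (0.0259). Zyx, a focal adhesion protein, read 8.72 and 8.96 at 24 h, against 10.62 and 10.84 at 6 h, a change of -1.89 ± 0.30 (adjusted p = 0.00757), and a second probe set gave -0.15. Nlrp3, Pycard and Ikbke were picked after their values were seen. Some of these falls were also seen in WT of the run of KO. Acot7 changed there by -1.96 (limma, adjusted p = 0.00124), Bcl3 by -1.28 (0.01) and Ikbke by -1.25 (0.0113). Cp (-0.66), Cyp27a1 (-0.06), Hk2 (0.32) and Fcrls (0.49) did not pass there. The difference of the changes in KO and WT passed for none of these.

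The genes that rose were led by Angpt2, the angiopoietin that opposes TIE2 signalling, which read 8.50 and 8.05 at 24 h, against 7.03 and 5.40 at 6 h (2.05 ± 0.51, limma, adjusted p = 0.04). Its 6 h arrays differed by more than the times did in replicate 1. Without a KO array in turn the change was 1.24 to 2.87. Plekha1, a phosphoinositide-binding adaptor, had the lowest adjusted p of all genes. It read 8.89 and 8.86 at 24 h, against 6.98 and 7.42 at 6 h, with 8.35 and 8.34 at 0 h, a change of 1.67 ± 0.17 (adjusted p = 0.000566). Cyb5r1, a cytochrome b5 reductase, read 9.78 and 9.77 at 24 h, against 8.24 and 8.16 at 6 h, with 9.60 and 9.32 at 0 h, a change of 1.58 ± 0.18 (adjusted p = 0.0012). In both genes the 6 h arrays were the lowest and the 24 h arrays the highest of the 6. Cyb5r1 also rose in WT of the run of KO, by 1.28 (limma, adjusted p = 0.00101). The difference of its changes in KO and WT did not pass (0.30 ± 0.25, adjusted p = 0.684).

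St8sia4, a polysialyltransferase, rose by 1.89 ± 0.30 (limma, adjusted p = 0.00757), and Antxr2, an anthrax toxin receptor, by 1.91 ± 0.44 (0.0326). Fam114a1 rose by 1.83 ± 0.25 (0.00552) and Zfand2a, a stress-inducible partner of the proteasome, by 1.67 ± 0.26 (0.00757). Zfp36l2, which shortens the life of AU-rich mRNAs, rose by 1.61 ± 0.35 (0.0269), and Pmaip1, the death-promoting BCL2 relative NOXA, by 1.57 ± 0.38 (0.0378). Pck2, a mitochondrial enzyme that makes phosphoenolpyruvate, rose by 1.61 ± 0.39 (0.0389). Polrmt, the mitochondrial RNA polymerase, rose by 1.52 ± 0.26 (0.013), with 0.16 on a second probe set. Of 27 other probe sets of the 50 named genes that passed, 26 had the same direction.

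**Figure D2:**
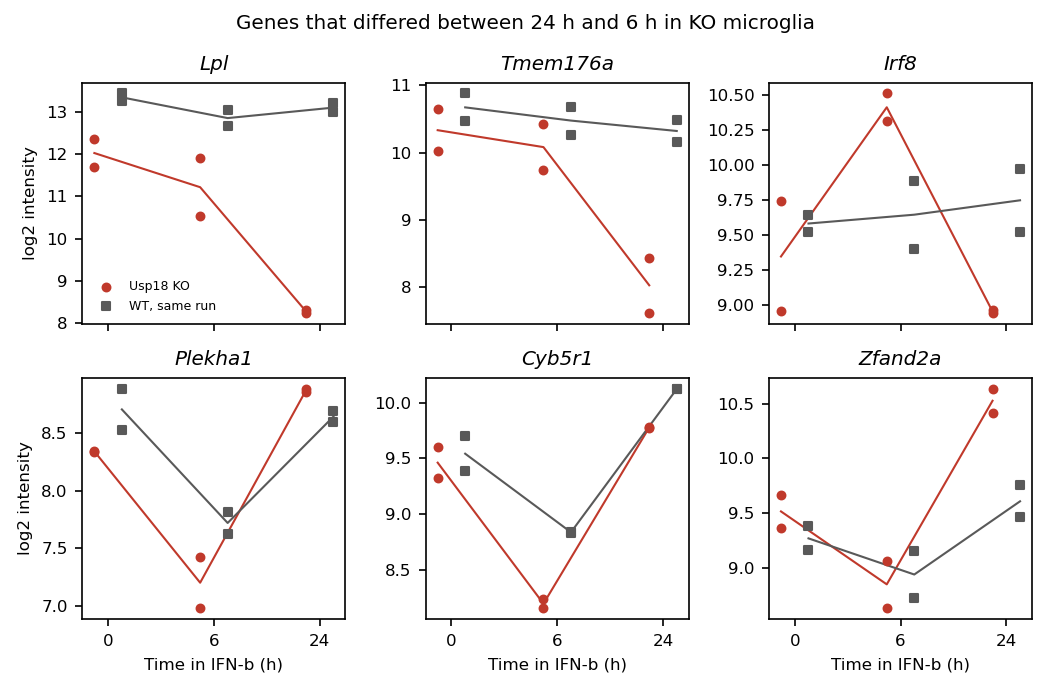
Level (log2 intensity) of 6 genes at 0, 6 and 24 h of IFN-b (evenly spaced) in Usp18 KO microglia (red circles, left) and WT microglia of the same run (grey squares, right); points are arrays and lines join the means of 2. In KO Lpl ends at 8.32 and 8.24, and Plekha1 and Cyb5r1 dip at 6 h and end at 8.89 and 8.86 and at 9.78 and 9.77.

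Most rises were preceded by a dip. In 188 of the 221 genes that rose, both untreated KO arrays lay above both 6 h arrays (85.1%, against 29.8% of all genes), and the same 6 h arrays enter both sides. The change of 24 h against 6 h therefore partly fixes this count. The same holds for the further counts against the untreated arrays below, since the 6 h and 24 h arrays in them also chose the genes. At 24 h 142 of the 221 lay above both untreated arrays (64.3%, against 25.1% of all genes) and 17 lay below them (28.4% of all genes did). Of the 71 genes that fell, 48 had both untreated arrays below the 6 h arrays (67.6%, against 18% of all genes), and 45 lay below both untreated arrays at 24 h (63.4%, against 28.4%). Both held for 22 genes, which were above the untreated arrays at 6 h and below them at 24 h. At 6 h 36 of the 221 had a mean under the lowest array median (5.62), as did 7 of the 71 at 24 h, where a weak signal can flatten a change.

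Autophagy genes and zinc finger genes were among the rises, both picked after the values were seen. Of 13 Atg genes, which build the autophagosome, 3 rose (23.1%, against 2.78% of all genes higher). All 13 had a change above 0, against 54.5% of all genes. The median was 0.54 in KO and 0.28 in WT of the run of KO, where 4 of the 13 rose and 1 fell (6.19% and 4.38% of all genes did). Atg7 rose by 0.93 ± 0.22 (limma, adjusted p = 0.0346), Atg5 by 0.89 ± 0.21 (0.0356) and Atg101 by 0.61 ± 0.16 (0.0445). Other probe sets gave 0.82 and 0.15 for Atg7 and 0.37 and 0.62 for Atg5. Nbr1, a receptor for autophagy cargo, rose by 1.09 ± 0.25 (0.034), and Uvrag, which acts in autophagosome maturation, by 0.58 ± 0.15 (0.0492). None of these 5 calls was kept without KO 24 h replicate 1 or without KO 24 h replicate 2. Of 104 genes named Zfp, 17 rose and 0 fell (16.3%, against 2.78% of all genes higher), with Zfp36l2 (above) and Zfp53 (1.48 ± 0.30) among them. The median change of the Zfp genes was 0.35 in KO and 0.27 in WT of the run of KO, where 6 rose and 3 fell.

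The interferon lists had a median change near 0 between the times. The 7 interferon lists (antiviral effectors, ISG15 conjugation, receptor and JAK-STAT genes, sensors, GTPases, chemokines and class I presentation) held 96 tested genes, of which 0 rose and 1 (Irf8) fell, 1.04% called. Without the 2 arrays that stood apart 1 rose and 1 fell. Their median change was -0.01, with 46 above 0, beside 0.05 for all genes. In WT of the run of KO the same 96 genes had a median of -0.61, 3 rose and 10 fell (13.5%, beside 10.6% of all genes), and in WT of the other run the median was 0.03 with 0 called (limma, 0 of all genes called and 490 at unadjusted p under 0.05). The medians in KO and in WT of the other run thus lay side by side, and the difference from WT of the run of KO passed for 0 of the 96 genes. Without the 2 arrays that stood apart 32 of the 96 fell and 3 rose in WT of the run of KO (16.5% of all genes called), and the difference passed for 3 (0.779% of all genes). With the arrays of the run of KO only, 40 fell and 3 rose in WT, and the difference passed for 1.

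Cxcl10 read 12.81 and 12.83 at 24 h, against 12.95 and 12.95 at 6 h in KO, a change of -0.13 ± 1.06 (limma, adjusted p = 0.974). The untreated KO arrays already read 12.63 and 12.37. In WT of the run of KO it read 8.24 and 9.10 at 24 h, against 12.70 and 12.53 at 6 h (-3.95, adjusted p = 0.0282). Gbp2 read 12.71 and 12.52 at 24 h, against 12.75 and 12.41 at 6 h in KO, a change of 0.04 ± 0.98, beside -2.47 in WT (adjusted p = 0.118). For both genes the 4 KO arrays lay close together, while the pooled spread was large. The difference of the changes did not pass for either gene in the fit of all microglia (limma, adjusted p = 0.286 and 0.466). That fit held the 2 arrays that stood apart. Without them the standard error of the KO change was 0.43 for Cxcl10 and 0.55 for Gbp2. A difference that did not pass for these genes can therefore not be read as absent.

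The antiviral effectors and signalling factors named next did not pass. The log2 difference was -0.03 for Ifit1, -0.03 for Ifit3, -0.01 for Isg20, 0.06 for Irf7 and -0.02 for Stat2. Rsad2, the antiviral enzyme viperin, read 13.86 and 13.79 at 24 h, against 13.78 and 13.78 at 6 h, which is the highest value of those arrays or close to it, where a further rise could be hidden. Untreated KO microglia read 13.76 and 13.47. Of the 16 genes of the receptor and JAK-STAT list, Ifngr1, a chain of the interferon gamma receptor, had the highest change, 1.29 ± 0.41 (limma, adjusted p = 0.0923), and passed without the 2 arrays that stood apart (0.017).

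A further list was chosen with no microglial array. In BV-2 cells, a mouse microglial line, given control siRNA, 71 of 7163 genes passed between 6 h and 0 h of IFN-b (0.991%), and 70 of these were higher by a log2 change of 1 or more, 69 of them tested here. On the arrays the mean level of the 69 was 11.01 and 11.01 in KO at 24 h and 11.12 and 10.95 at 6 h, with 10.67 and 10.25 in untreated KO microglia. The median change was -0.05 with quartiles of -0.19 and 0.11, and 0 genes rose or fell (0 at unadjusted p under 0.05). In WT of the run of KO the means were 9.68 and 9.72 at 24 h and 10.51 and 10.60 at 6 h, and the median change was -0.77 with 6 genes lower (4.38% of all genes were). The genes lower in WT numbered 26 without the 2 arrays that stood apart and 36 with the arrays of the run of KO only. In WT of the other run the median was -0.08. The median standard error of the 69 genes was 0.75 in the fit of all microglia, 0.31 without the 2 arrays that stood apart and 0.21 with the arrays of the run of KO only, and 0 of the 69 passed in KO in each of these fits.

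**Figure D3:**
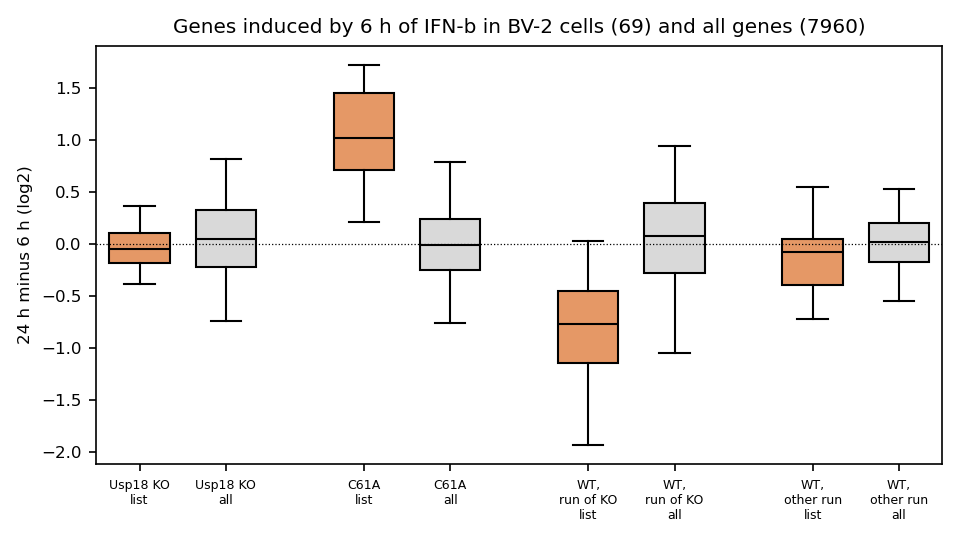
Change from 6 h to 24 h (log2) of 69 genes induced by IFN-b in BV-2 cells (orange) and of all 7960 genes (grey); boxes give quartiles, lines the median, and whiskers the 5th and 95th percentiles over genes. The list's median is -0.05 in Usp18 KO, 1.02 in C61A (0.02 without the array C61A 6 h replicate 2), -0.77 in WT of the same run and -0.08 in WT of the other run.

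Genes that 6 h of IFN-b raised or lowered in WT of the run of KO had medians of the opposite sign in KO between 6 h and 24 h. Of 597 genes raised there by 1 or more (10.8% of all genes rose), 3 rose and 16 fell in KO (3.18%, beside 3.67% of all genes), with a median of -0.18. Without the 2 arrays that stood apart 7 rose and 50 fell, beside 6.98% of all genes called. Of 500 genes lowered there by 1 or more (14.1% of all genes fell), 35 rose and 1 fell (7.2%), with a median of 0.36. In WT itself those medians were -0.99 and 0.92, but the WT 6 h arrays chose the lists. Zyx, Cp and Acot7 led the 16 that fell in KO. Without KO 6 h replicate 1 the median of the lowered genes was 0.15.

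Inflammatory genes gave values at 24 h that did not pass. Of 13 tested 0 rose or fell, the median was -0.47, and 3 lay above 0. Ptges, which makes prostaglandin E2, had the smallest p of them, with a higher level at 24 h (1.02 ± 0.31, limma, adjusted p = 0.0787), and passed without the 2 arrays that stood apart (0.0435). Il6 read 8.55 and 7.41 at 24 h, against 10.26 and 8.69 at 6 h (-1.49 ± 1.03, limma, adjusted p = 0.49). Tnf read 9.03 and 8.63 at 24 h, against 9.74 and 9.95 at 6 h (-1.02 ± 0.39, adjusted p = 0.166). The 24 h arrays were below the 6 h arrays for both, though the 6 h arrays of Il6 were wide apart. Cd40, a co-stimulatory receptor, read 10.07 and 9.89 at 24 h, against 11.48 and 11.30 at 6 h (-1.41 ± 0.77, adjusted p = 0.351), and passed without the 2 arrays that stood apart (0.0369). Il1rn, the interleukin 1 receptor antagonist, read 12.17 and 12.02 at 24 h, against 12.42 and 11.61 at 6 h (0.08 ± 0.67).

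**Figure D4:**
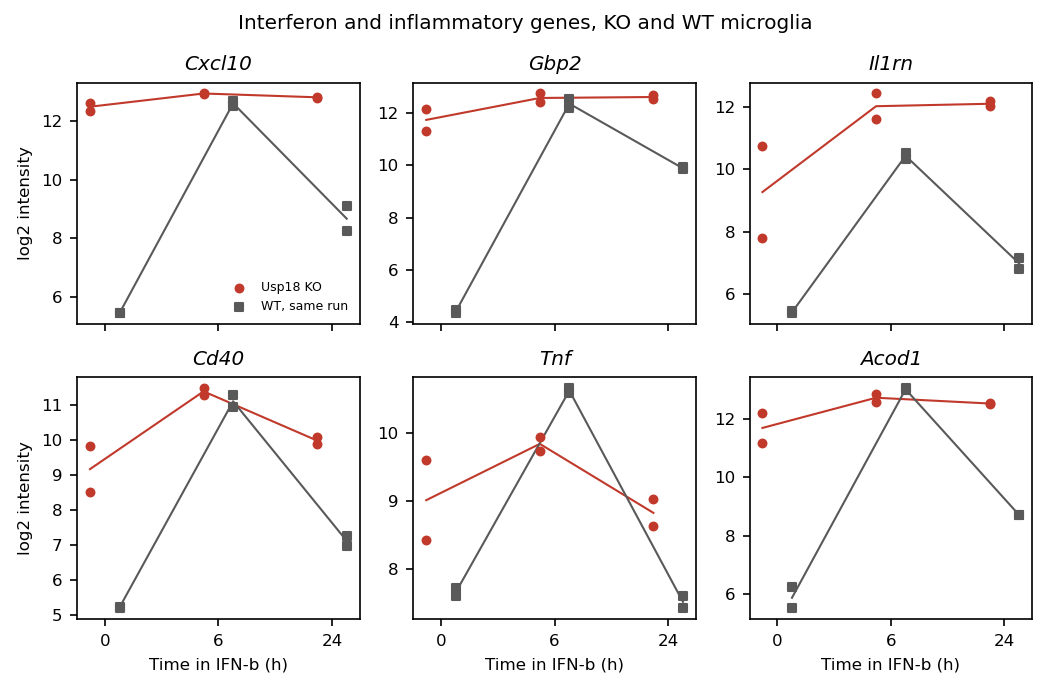
Level (log2 intensity) of 6 interferon and inflammatory genes at 0, 6 and 24 h of IFN-b (evenly spaced) in Usp18 KO microglia (red circles, left) and WT microglia of the same run (grey squares, right); points are arrays and lines join the means of 2. Cxcl10 stays at 12.81 and 12.83 at 24 h in KO and reads 8.24 and 9.10 in WT.

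The feedback inhibitors of cytokine and NF-kB signalling included Bcl3 as the 1 of 18 that passed in KO (3.67% of all genes did), with a median of -0.24. In WT of the run of KO 7 of the 18 fell and 0 rose (4.38% of all genes fell), with a median of -0.96. Socs3, which blocks JAK signalling at gp130-type receptors, had the largest change of the list in KO, 8.28 and 7.26 at 24 h, against 11.21 and 8.90 at 6 h (-2.28 ± 0.74, limma, adjusted p = 0.0981). It passed without the 2 arrays that stood apart (0.0373). Dusp2, a phosphatase of MAP kinases, had -1.91 ± 0.60 (0.0914). It too passed without those arrays (0.00679). The remaining lists had few calls, to be read beside the 3.67% of all genes called. Fcrls was the 1 of 11 tested markers of resting microglia that passed (median -0.02), and Lpl was the 1 of 20 phagocytic and lysosomal genes (median 0.04). Of 12 cell death genes Pmaip1 rose and Ripk3 fell, with a median of -0.05. Among the endoplasmic reticulum and integrated stress genes 0 of 17 passed, with Ddit3 at 1.46 ± 0.40 (0.0586) and Atf4 at 0.72 ± 0.19 (0.0528). Of 16 genes of cholesterol synthesis and handling, 7 of class II presentation, 8 co-stimulatory and checkpoint ligands, 10 complement genes, 15 immediate early genes and 14 oxidative phosphorylation subunits, 0 passed. Without the 2 arrays that stood apart H2-Eb1, a class II chain, passed at -0.81 (0.0427) and Atf4 passed (0.0456). Ptger2, a prostaglandin E2 receptor, had the highest change of any gene, 7.68 and 6.77 at 24 h, against 3.58 and 3.85 at 6 h (3.51 ± 0.94), and missed the threshold (adjusted p = 0.0528). It passed without the 2 arrays that stood apart (0.00655).

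Cell division genes and markers of other macrophages had their highest mean level of the 4 arrays on 1 of the 6 h arrays. Of 22 cell division genes 0 passed (7 at unadjusted p under 0.05), the median was -0.76 and 1 lay above 0. Their mean level was 6.14 and 6.23 at 24 h, against 6.57 and 7.19 at 6 h. The 5 tested markers of border macrophages, which line the vessels and meninges, had a mean of 7.11 and 7.22 at 24 h, against 7.31 and 8.98 at 6 h, with 0 passing and a median of -1.35. Among them Mrc1 read 4.06 and 3.48 at 24 h, against 4.77 and 6.72 at 6 h, and the untreated replicate 2 read 6.74. Ms4a7 went the other way, with 13.02 and 12.86 at 24 h, against 12.82 and 12.35 at 6 h. The changes were -1.98 for Mrc1, -1.59 for F13a1, -1.35 for Stab1, -0.36 for Pf4 and 0.35 for Ms4a7. KO 6 h replicate 2 was thus the array with the highest mean for both lists, though not for each member. Without it the median was -0.43 for cell division and -0.01 for border macrophages. Without KO 6 h replicate 1 these medians were -1.07 and -2.62. Untreated replicate 2 was also above replicate 1, with means of 7.14 against 6.74 for cell division and 9.09 against 7.53 for border macrophages. The part of this in the other results was not tested. The number of calls without KO 6 h replicate 2 is given above. No call fell among 10 astrocyte, 8 oligodendrocyte, 4 neuronal, 6 fibroblast or endothelial, 2 monocyte or granulocyte and 1 lymphocyte markers. The neuronal, oligodendrocyte and astrocyte lists had a higher mean in replicate 2 than in replicate 1 at both times. The neuronal mean was 5.07 and 6.90 at 24 h, against 4.65 and 7.06 at 6 h, and the list's median change was 0.24 and lay between -1.09 and 1.43 without a KO array in turn. The oligodendrocyte mean was 6.77 and 7.96 at 24 h, against 6.90 and 8.18 at 6 h, and the astrocyte mean 5.54 and 6.36 at 24 h, against 5.86 and 6.81 at 6 h. The part of these RNAs in the results was not tested. Ttr, a product of the choroid plexus, read 2.97 and 9.35 at 24 h, against 11.88 and 10.06 at 6 h. The difference of 3' and 5' control probes of Gapdh, a sign of RNA quality, was -0.46 and -0.48 at 24 h, against -0.46 and -0.33 at 6 h.

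**Figure D5:**
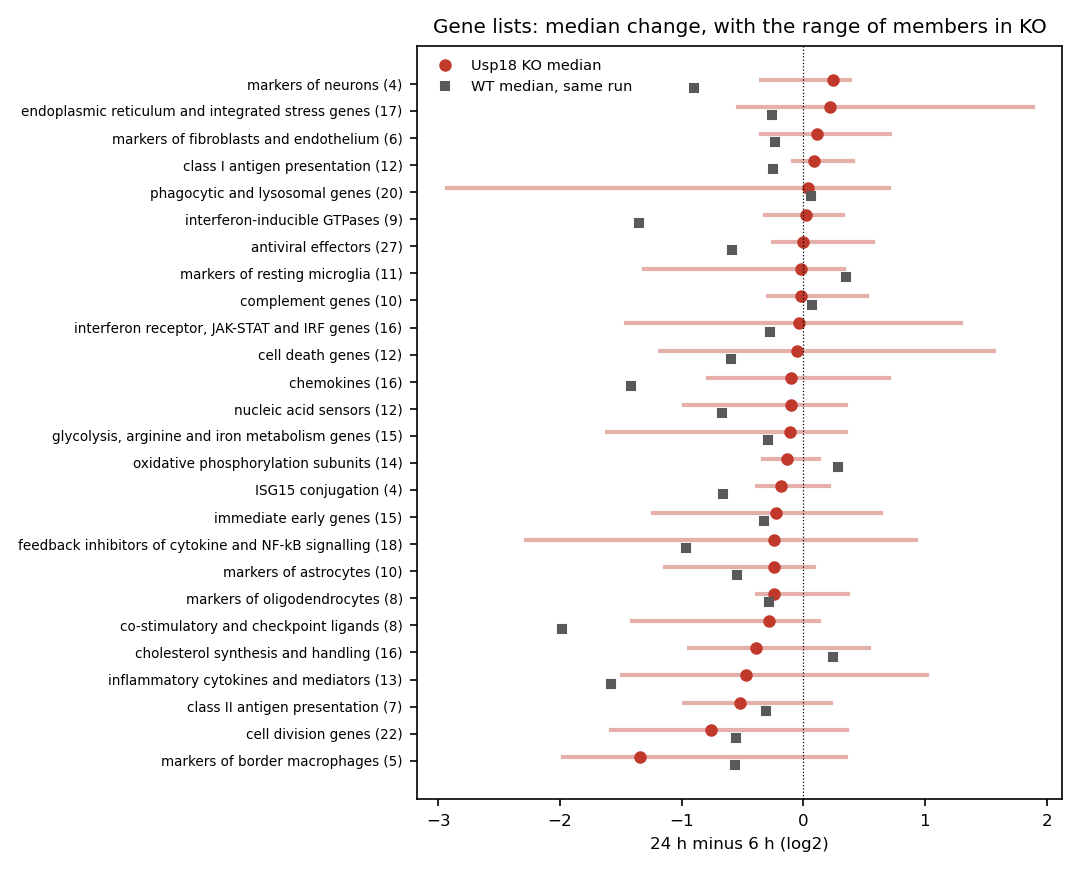
Median change from 6 h to 24 h (log2) of each gene list in Usp18 KO microglia (red, with a bar from the lowest to the highest member) and in WT microglia of the same run (grey); numbers of tested genes stand in brackets, and lists of marker genes with under 4 tested are left out. The GTPases have a median of 0.02 in KO and -1.35 in WT, and the chemokines -0.10 and -1.41.

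Whether the change differed between genotypes was tested by the difference of the changes. Against WT of the run of KO, 10 genes passed (0.126% of those tested), 4 with a higher (0.0503%) and 6 with a lower change in KO (0.0754%). Acod1, the enzyme that makes itaconate, read 12.53 and 12.54 in KO at 24 h and 12.60 and 12.87 at 6 h, against 8.71 and 8.71 in WT at 24 h and 12.98 and 13.06 at 6 h. The difference of the changes was 4.12 ± 0.57 (limma, adjusted p = 0.0126). The 2 times lay far apart in WT of the run of KO and close together in KO. Acod1 in WT of the other run read 12.84 and 12.77 at 24 h, against 13.04 and 13.02 at 6 h, a change of -0.22. Klf10, a TGF-beta-induced transcription factor, differed by 1.88 ± 0.31 (0.0318), with a change of 0.92 in KO and -0.96 in WT. Birc3, an inhibitor of apoptosis, differed by 1.64 ± 0.29 (0.0463), and Ttc39c by 1.62 ± 0.22 (0.0126). Lpl was on the lower side, by -3.18 ± 0.49 (0.0253), as were Dkk2, Slc46a3, Smagp, Setd6 and Tmem205. None of the 10 passed with WT of the other run, where Birc3, Slc46a3 and Ttc39c turned sign.

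Dkk2, an antagonist of WNT signalling, and Slc46a3, a lysosomal transporter, rose in WT of the run of KO. The change was -0.04 in KO against 3.12 in WT for Dkk2 and -0.34 in KO against 1.99 in WT for Slc46a3. In KO Dkk2 read 2.93 and 2.69 at 24 h and 2.68 and 3.02 at 6 h. These values lie near the bottom of the scale, where a fall could be hidden. Of the 69 genes induced in BV-2 cells, 63 had a higher change in KO than in WT (51% of all genes did), with a median difference of 0.71, but 0 passed. Without the 2 arrays that stood apart 4 of the 69 passed, beside 0.779% of all genes. The number of calls among all genes was 0 without KO 24 h replicate 1, WT 24 h replicate 1 or WT 6 h replicate 2 (limma, 701, 781 and 774 at unadjusted p under 0.05). It was 1 without KO 24 h replicate 2, 2 without WT 24 h replicate 2, 5 without KO 6 h replicate 2, 26 without KO 6 h replicate 1 and 55 without WT 6 h replicate 1. With WT of the other run 2 genes differed (0.0251%), Plekha1 and St8sia4.

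Most genes that rose or fell in KO had a change of the same sign in WT of the run of KO. Of the 221 that rose, 206 had a change above 0 in WT of the run of KO (93.2%, against 55.7% of all genes), and 67 rose there (6.19% of all genes did), which is 30.3% of the 221 and 13.6% of the 493 that rose in WT. In WT of the other run 176 of the 221 were above 0 (79.6%, against 52.3%), and in C61A 101 were (45.7%, against 49.1%). Of the 71 that fell, 52 were below 0 in WT of the run of KO (73.2%, against 44.3% of all genes), and 24 fell there (4.38% of all genes did), 33.8% of the 71 and 6.88% of the 349 that fell in WT. Below 0 were 49 of the 71 in WT of the other run (69.0%, against 47.7%) and 50 in C61A (70.4%, against 50.9%). The changes share no arrays. The C61A counts include the array labelled C61A 6 h replicate 2, which stood apart from its label, and were not taken without it.

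Against C61A, a mutant of the active-site cysteine of the protease, 20 genes passed (0.251%), 15 higher (0.188%) and 5 lower (0.0628%) in KO. Plekha1 differed by 2.00 ± 0.24 (limma, adjusted p = 0.00475), with a change of 1.67 in KO and -0.32 in C61A. Cyb5r1 differed by 1.90 ± 0.25 (0.00646) and Dph6, an enzyme of diphthamide synthesis, by 2.17 ± 0.30 (0.00646). The rise of Cyb5r1 in WT of the run of KO is given above. Pycard was on the lower side, by -2.04 ± 0.35 (0.0249). C61A lies in the other run, so genotype and run cannot be told apart here. Without the array labelled C61A 6 h replicate 2 the count was 5, all among the 20, and they included Plekha1, Cyb5r1 and Dph6 but not Pycard (adjusted p = 0.0997). The median change of the 69 BV-2 genes in C61A was 1.02 with that array and 0.02 without it.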

How the data were processed

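Total RNA was isolated, labelled with biotin and hybridised to arrays of 22690 probe sets, per the labels' protocols. The deposited values were used as log2 intensities, by their range (1.66 to 14.0), since the base is not stated. The tool affy is named, per the submitters' processing notes; the sources used here name no summary method, normalization or genome build. GEO's probe annotation listed 21084 probe sets, 20393 with 1 gene, 691 with several and 1606 not listed. Only those with 1 gene were used. A probe set was kept where 2 or more of 24 microglia arrays had it over their own median, and the one with the highest mean stood for its gene, which left 7960 of 12394 genes. Symbols were matched by gene ID to RefSeq (7953 genes, none changed).

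limma 3.58.1 in R 4.3.3 was fitted to all 24 microglia arrays as 12 means of genotype, time and run (12 residual degrees of freedom), moderated by eBayes, and p-values were adjusted by Benjamini-Hochberg across the 7960 genes. The contrasts were KO 24 h against 6 h and its difference from the WT and C61A changes. The BV-2 list came from a fit of 12 BV-2 arrays (7163 genes). The code was tested on simulated data. No pair of arrays was identical (highest correlation 0.995). The 28 gene lists held 415 genes, 328 of them tested. Members and lists were chosen with earlier results of these data known. Genes were named if among the 15 with the largest change in each direction, up to 4 called members of a list or otherwise its smallest p, or up to 8 a direction in each difference of changes. Further genes of the interferon, inflammatory, feedback, stress, autophagy and other groups were named after their values were seen. Alternatives are given in the closing section. Figures were drawn with matplotlib 3.10.9.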

Additional observations from a re-analysis of the deposited data

Results flagged for a closer look

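The change from 6 h to 24 h differed between KO and WT of the run of KO, by the test of the difference of the changes (limma, adjusted p under 0.05), for 10 genes. The difference was 4.12 for Acod1, 1.88 for Klf10, 1.64 for Birc3 and 1.62 for Ttc39c. It was -3.18 for Lpl, -3.16 for Dkk2, -2.33 for Slc46a3, -2.18 for Smagp, -1.71 for Setd6 and -1.43 for Tmem205. None of these 10 passed against WT of the other run.

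Between KO and C61A the difference was 6.24 for Ctsk, 2.90 for Havcr2, 2.64 for Lmna, 2.55 for St8sia4, 2.17 for Dph6, 2.00 for Plekha1, 1.94 for Tpm2 and 1.90 for Cyb5r1. It was -2.04 for Pycard, -1.76 for Trib1, -1.62 for Gramd1a, -1.55 for Slc31a2 and -1.52 for Pgs1. In C61A Ctsk read 5.01 and 4.77 at 24 h, against 9.45 and 12.39 at 6 h. The 12.39 came from the array labelled C61A 6 h replicate 2, which stood apart from its label. Without that array the difference was 4.76 for Ctsk, 2.68 for Havcr2, 2.20 for Lmna and 1.70 for Tpm2, and no sign turned. How many calls rested on that array is given above. For Lmna a second probe set gave a change of -0.07 in KO, against 1.45.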

How the results depend on the processing

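Genes that differed between 24 h and 6 h in KO numbered 292. The number was 556 (405 higher, 151 lower) without the 2 arrays of the other run that stood apart, 162 with each array centred on its median, 0 with the 6 KO arrays alone and 7 to 249 without a KO array in turn. For the difference from the WT change, 10 became 62 without the 2 arrays, 6 after centring, 6 without the filter, 4 with the mean of all probe sets, 1 with the arrays of the run of KO, 2 with WT of the other run, 2 with the mean of both WT changes and 0 to 55 without an array in turn. Against WT of the other run Birc3 (-0.47), Slc46a3 (0.0516) and Ttc39c (-0.0266) turned sign. For C61A, 20 became 5 without C61A 6 h replicate 2. The median KO change of genes raised in WT was -0.08, beside -0.18, when a change of 2 was required. The lists followed in other genotypes without the 2 arrays, and those without KO arrays in turn, were added after seeing the data. Of 50 named genes that passed, 3 kept their call without each KO array in turn and 17 kept it in none.

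The labels number the replicates alike at each KO time. Deviations of same-numbered KO arrays correlated at 0.811, 0.715 and 0.685, but 2 pairs do not settle a pairing. With the replicate block fixed there were 1013 calls in KO, 335 against WT, 482 against C61A and 1850 in WT (842 without). With it as a random block (correlation 0.385) there were 1102 and 357, and with the block in the 6 KO arrays 827. The 292 genes were among the calls of the fixed and of the random block. With 2 arrays a group, a gene that did not pass cannot be called unchanged.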
